A study of Mus musculus with 2 samples.

Results

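The cytosolic ribosomal protein genes were taken as the rows whose symbol names a protein of the large subunit (Rpl, with the stalk proteins Rplp0, Rplp1 and Rplp2) or of the small subunit (Rps, with Rpsa). The symbol rule matched 80 of 31053 genes, 49 of the large and 31 of the small subunit. Single-cell RNA was measured in 2 libraries of retinal cells from C57BL/6 mice labelled 6 to 8 weeks old, titled as 2 weeks after optic nerve injury ("onc"). The PBS library came from injured mice given PBS, and the MSC-sEV library from injured mice given the treatment of that name. Both groups carried the injury and no uninjured group was used here. Each library was 1 pool of retinas from 6 mice, digested with papain and enriched on beads for CD45, the surface marker of leukocytes. With 1 library per group no difference has a replicate check, so no p-values are given. Intervals of pooled shares and of ratios are exact 95% intervals that cover counting error only. Intervals of per-cell medians come from the ranked cells of 1 library. They cover the spread between those cells and not the spread between mice or libraries.

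A ribosome joins a small subunit, which reads the messenger RNA, to a large subunit, which links the amino acids. Each cytosolic ribosomal protein is made in near equal numbers for assembly in the nucleolus, and the messenger RNAs of most of them begin with a run of pyrimidines that ties their translation to the mTORC1 pathway. They are among the most abundant messenger RNAs of many cells, and leukocytes are known for carrying a large share of them. Photoreceptors spend much of their messenger RNA on the proteins of the light-sensing outer segment.

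Runs of pyrimidines near the start are shown for 13 members that stood highest or lowest in microglia-like against rod-like cells, so that both sides can be read together. RefSeq start sites on GRCm38.p6 were found for 60 of the 80 members, at 72 starts. The longest run of C and T on the gene's strand within 50 bases either side of the start had a median length of 10 bases at these starts and 7 at all 32851 listed starts. A run of at least 8 bases was present at 79.2% of the members' starts and 35.7% of all starts. Below, capitals mark that run in a window of 30 bases around it, and for Rpl10 and Rpl39 the run reaches the end of the sequence available. The first 8 sequences belong to members with a larger share in microglia-like cells and the last 5 to members with a larger share in rod-like cells.
Rpl10, chrX:74270836-74270865, plus strand: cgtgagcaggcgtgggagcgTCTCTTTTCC
Rps9, chr7:3704024-3704053, plus strand: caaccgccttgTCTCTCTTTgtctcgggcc
Rpl39, chrX:37085173-37085202, minus strand: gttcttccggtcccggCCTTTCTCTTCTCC
Rplp0, chr5:115559466-115559495, plus strand: aggaccgcctggTTCTCCTataaaaggcac
Rpl35a, chr16:33056468-33056497, plus strand: cggggcttgCCTTCCTCTTTCCgccatctt
Rps12, chr10:23787182-23787211, minus strand: ccaccgccggCCTTTTCCCCTgccgccgcc
Rpl12, chr2:32961732-32961761, plus strand: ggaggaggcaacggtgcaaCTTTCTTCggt
Rpl27a, chr7:109519186-109519215, plus strand: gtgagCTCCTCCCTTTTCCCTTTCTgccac
Rpl9, chr5:65391383-65391412, minus strand: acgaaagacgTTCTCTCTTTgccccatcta
Rps15, chr10:80292446-80292475, plus strand: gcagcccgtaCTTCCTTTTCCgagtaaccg
Rpl4, chr9:64173405-64173434, plus strand: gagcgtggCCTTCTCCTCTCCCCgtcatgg
Rpsa, chr9:120127704-120127733, plus strand: gcggaagttctcCCTTTTTgcttagcctgc
Rpl10a, chr17:28328450-28328479, plus strand: cgcgtggtggcgCCCCCCCagcggccgcaa
Within the limits of the search the run had 7 bases in Rplp0, Rpsa and Rpl10a and at least 8 in the others. In Rpsa the bases just before the capitals are also C or T, so its full run is longer. Rplp0 and Rpl10a lie on opposite sides, so longer and shorter runs were found on both sides. The marked run is not always at the listed start: counted in bases from that start, it began at -6 in Rps9 and -4 in Rpl27a, but at 40 in Rpl10, 29 in Rpl9 and -50 in Rpsa, where it was cut by the limit of the search. Whether it is the run with which the messenger RNA begins was not tested, and no activity was measured.

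UMIs, unique tags that count each captured RNA molecule once, numbered 8439740 over 1676 PBS barcodes and 16987131 over 2593 MSC-sEV barcodes. No barcode was shared between the libraries. The filter kept 1347 and 2323 barcodes, those that had 500 UMIs or more from 300 genes or more and no more than 15% mitochondrial UMIs. Median depth was 2601 and 2920 UMIs. A UMI was found for 78 of the 80 members in PBS and for 79 in MSC-sEV. Members made up 9.98% of the passing PBS UMIs and 13.7% of the passing MSC-sEV UMIs. In the barcodes that failed, whose median mitochondrial share was 28.2% and 26.6%, the member share was 7.26% and 6.90%.

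Leukocytes carried the largest ribosomal protein shares of the named classes and neurons the smallest. A class is a set of clusters named from its markers, with the word "like" because the names were rebuilt here. Members made up 16.9% of the UMIs of microglia-like cells in PBS (interval 16.9% to 17.04%, 108 cells) and 16.6% in MSC-sEV (16.6 to 16.7, 366 cells). In rod-like cells the share was 9.64% in PBS (9.60 to 9.67, 748 cells) and 6.53% in MSC-sEV (6.51 to 6.56, 1166 cells). The ratio of microglia-like to rod-like cells was thus 1.76 in PBS (1.75 to 1.77) and 2.54 in MSC-sEV (2.53 to 2.56). In the MSC-sEV library the share was 19.0% in 208 monocyte or macrophage-like cells, 20.3% in 109 T cell-like cells and 19.9% in 50 migratory dendritic cell-like cells. The PBS library had no cluster of these 3 classes. The T cell-like cluster was mixed. At the finer resolution of 2.0, a split made after seeing the data, it fell into 62 cells led by T cell genes, with a member share of 21.8%, and 47 dividing cells led by genes such as Top2a and Mki67, with 19.1%. Microglia markers made up 1.87% and T cell markers 0.076% of the UMIs of the 47 cells, against 0.71% and 0.34% in the 62, and the 47 cells took the name microglia-like there. Values of the T cell-like class below hold both.

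Per cell, the median share was 16.8% in PBS microglia-like cells (14.9 to 19.3) and 15.4% in MSC-sEV microglia-like cells (14.8 to 16.7). The PBS median was 13.9% at resolutions 0.5 and 2.0, where 40 and 46 cells held the name. At these resolutions the MSC-sEV median was 15.0% and 17.9%. The rod-like median was 8.51% in PBS (8.13 to 8.92) and 4.55% in MSC-sEV (4.09 to 4.88). The distributions overlapped: 75.9% of the PBS and 77.6% of the MSC-sEV microglia-like cells lay above the 90th percentile of the rod-like cells of their own library. Cone-like cells had pooled shares of 8.91% and 6.52%, Müller glia-like cells 10.1% and 8.73%, and bipolar cell-like cells 5.76% and 4.95%, each in PBS and MSC-sEV. Endothelial cell-like cells, with 21 and 10 cells, had 12.99% and 14.6%, between the neurons and the leukocytes. An unnamed cluster of 151 MSC-sEV cells led by Retnlg and Ccr3, with leukocyte markers, had 10.7% and a per-cell median of 7.79%, below every named leukocyte class. That cluster was shallow, with a median of 1270.0 UMIs. A shallow unnamed cluster led by Bc1 (232 PBS and 83 MSC-sEV cells) had 9.21% and 5.73%.

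**Figure D1:**
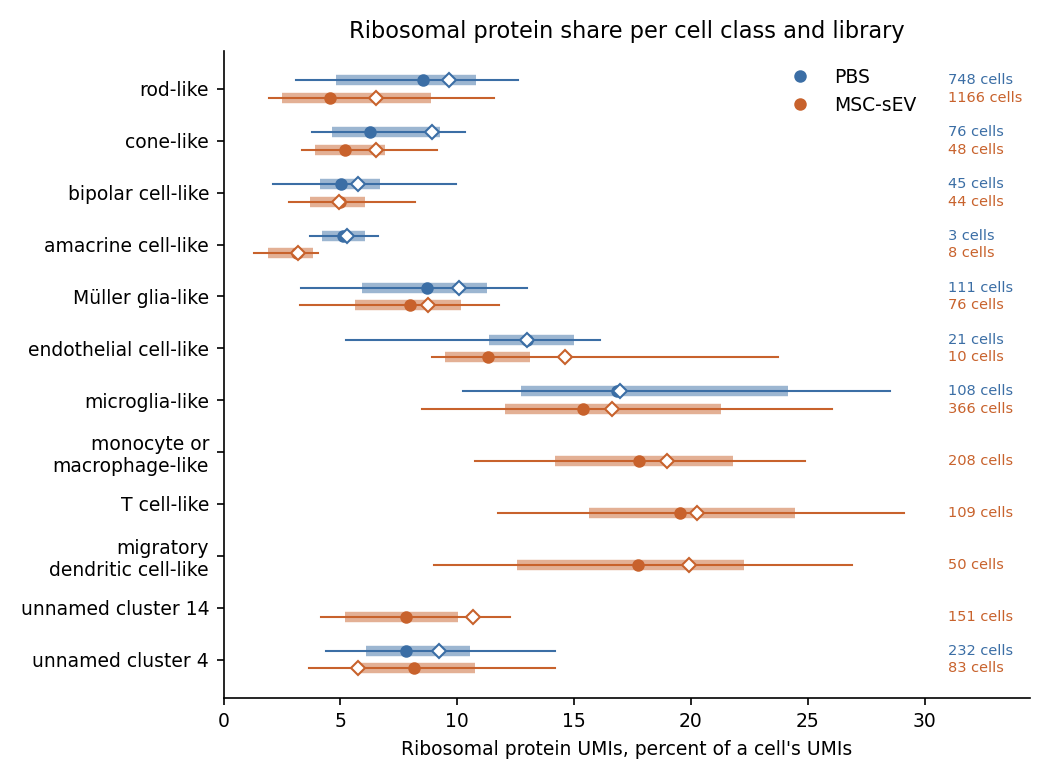
Share of a cell's UMIs that came from ribosomal protein genes (x axis, percent) for 12 classes or unnamed clusters and the libraries PBS (blue) and MSC-sEV (orange). Filled points are per-cell medians, thick bars the middle 50% of cells, thin lines the 10th to 90th percentile and open diamonds the share of the pooled UMIs; microglia-like, monocyte or macrophage-like, T cell-like and migratory dendritic cell-like cells have medians between 15.4% and 19.5%, and the rod-like medians are 8.51% and 4.55%.

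Rod-like cells were not uniform, and their shares differed more between clusters than between the libraries within a cluster. Cluster 0, led by the microRNA host gene Mir124a-1hg and by Rpgrip1, had 4.11% in PBS and 3.59% in MSC-sEV. Cluster 6, with the same host gene among its leading genes, had 5.68% and 4.91%. Clusters 3 and 5, led by rod genes such as Gnat1 and Rbp3, had 10.5% and 10.2%, and 9.86% and 9.78%. Cluster 7, with 46 cells of the PBS library alone, had 11.9%. Cluster 3 was the largest among the PBS rod-like cells (290 of 748) and cluster 0 the largest among the MSC-sEV rod-like cells (584 of 1166, against 99 in PBS). The ratio of MSC-sEV to PBS was 0.678 over all rod-like cells (0.674 to 0.681). Within clusters it was 0.975 in cluster 3 (0.965 to 0.985), 0.992 in cluster 5 (0.984 to 1.00), 0.873 in cluster 0 and 0.866 in cluster 6.

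Malat1, a long RNA kept in the nucleus, was high in the rod-like clusters with the smallest member shares. Its median share of a cell's UMIs was 8.60% and 7.84% in cluster 0 and 6.57% and 5.26% in cluster 6, against 0.54% and 0.31% in cluster 3, in PBS and MSC-sEV. The order was not strict, since cluster 7, with the largest member share, had 2.48%, above clusters 3 and 5 (0.54% and 0.46%) of the same library. The mitochondrial median was 2.20% and 0.92% in cluster 0, and 6.35% and 4.90% in cluster 3. Over all rod-like cells, Malat1 had a median of 1.16% in PBS and 4.91% in MSC-sEV. Microglia-like cells fell into a shallower cluster 1 (median depth 1484 and 2401 UMIs) with 20.7% and 19.8%, and a deeper cluster 10 (9875 and 14598 UMIs) with 15.7% and 16.0%. Cluster 1 held 68 of the 108 PBS cells and cluster 10 held 187 of the 366 MSC-sEV cells. The ratio of MSC-sEV to PBS was 0.956 in cluster 1 and 1.01 in cluster 10. The part of Malat1, mitochondrial RNA and depth in the shares was not tested.

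**Figure D2:**
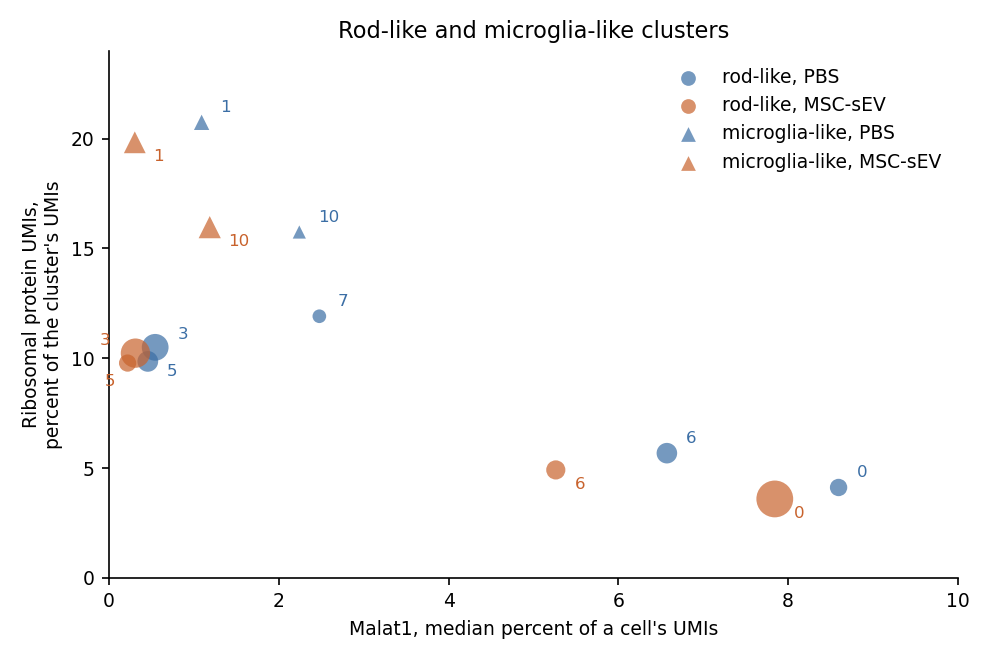
Pooled ribosomal protein share (y axis, percent of UMIs) against the median Malat1 share per cell (x axis, percent) for the rod-like (circles) and microglia-like (triangles) clusters in PBS (blue) and MSC-sEV (orange), with cluster numbers beside the points and point area growing with the number of cells. Rod-like clusters 0 and 6 lie at Malat1 medians of 5.26% or more with shares of 5.68% or less, and clusters 3 and 5 lie near 10% in both libraries.

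Markers of the other cell side were present in both classes. Of 23 photoreceptor markers, 22 had a UMI in the microglia-like cells of each library (Cnga3 had 0), and together they made up 1.57% of their UMIs in PBS and 0.662% in MSC-sEV. The share was 4.61% and 2.56% in microglia-like cluster 1, and 0.603% and 0.279% in cluster 10. All 8 general leukocyte markers had UMIs in the rod-like cells, at 0.0525% and 0.0180%, with 0.175% in cluster 7. Cluster 10, where the photoreceptor markers were lowest, had 16.0% member UMIs in MSC-sEV, against 10.2% in rod-like cluster 3, whose leukocyte marker share was 0.0214%. The part of RNA from the other side in the members' levels was not tested.

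Member by member, levels were compared as CPM, the UMIs of a gene divided by all UMIs of its class and library and multiplied by 1000000. At least 20 UMIs in the 2 classes together were found for 77 of the 80 members. The median log2 ratio of microglia-like over rod-like cells was 0.84 in PBS and 1.31 in MSC-sEV, against -0.27 and -0.39 over all genes tested. In PBS 26 of 77 members were at least 2-fold higher in microglia-like cells, where 20.3% of all genes tested were. That count was 53 in cells with 1000 to 5000 UMIs and 49 by the mean over cells of CPM, for which the share of all genes was not computed. None was at least 2-fold lower, where 28.2% of all genes were. In MSC-sEV 58 of 77 were at least 2-fold higher, where 24.9% of all genes were, and none at least 2-fold lower, where 33.6% were. With rod-like clusters 3 and 5 alone, a choice made after seeing the data, the counts were 24 and 22. The share of all genes was not computed for that choice, so whether members exceed it there cannot be said. The interval lay above 1 for 73 members in PBS and for all 77 in MSC-sEV. Rpl9, Rpl8 and Rpsa had PBS values below 1, with log2 ratios of -0.35, -0.09 and -0.04, and the Rpl9 interval excluded 1. Large and small subunit members had nearly the same medians, 0.80 and 0.87 in PBS and 1.30 and 1.31 in MSC-sEV.

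Because the whole group was higher in microglia-like cells, each member was also taken as a share of all member UMIs of its class, which removes the level of the group. This ratio differed between members in much the same order in both libraries. Across 77 members the 2 libraries had a Pearson r of 0.87 and a Spearman rho of 0.84, a description of points that share class totals, coding length and base composition within each gene. At least 1.5-fold more of the microglia-like member UMIs in both libraries came from 7 members: Rpl10, Rps9, Rpl39, Rplp0, Rpl35a, Rps12 and Rpl12. At least 1.5-fold less came from 5, among them Rpl9, Rpl8, Rps15 and Rpl4. Of all genes tested in both libraries, 12.5% lay at least 1.5-fold above and 63.4% at least 1.5-fold below the ratio of the summed members. The counts of members, 7 and 5 of 77, are to be read against these shares.

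**Figure D3:**
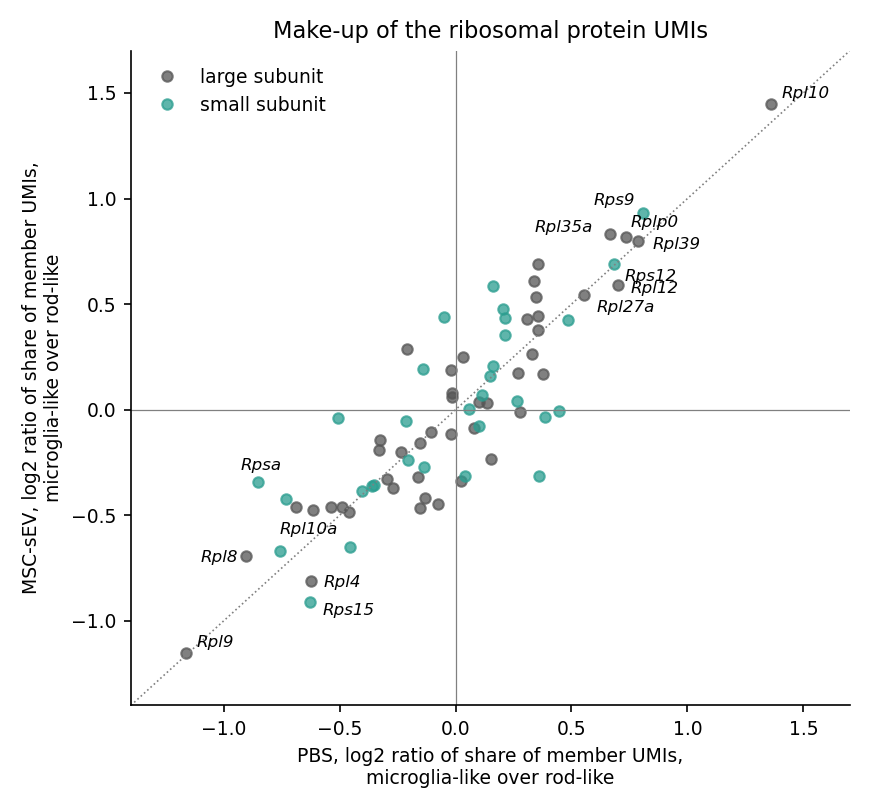
Each point is 1 of 77 members. The axes give the log2 ratio of the member's share of all ribosomal protein UMIs, microglia-like over rod-like, in PBS (x) and MSC-sEV (y), with large subunit members in grey, small subunit members in green and the line of equal values dotted; Rpl10 stands at 1.36 and 1.45 and Rpl9 at -1.16 and -1.15.

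Among large subunit members, Rpl10 differed most. Rpl10 is one of the last proteins to join the large subunit and lies near its catalytic centre. In microglia-like cells it had 2830.4 CPM (PBS) and 2234 CPM (MSC-sEV), and in rod-like cells 627 and 322 CPM. Its share of member UMIs was 2.57-fold higher in microglia-like cells in PBS (2.41 to 2.73) and 2.72-fold in MSC-sEV (2.56 to 2.90). Between cluster 10 and cluster 3 the log2 ratio of that share was 1.84 and 1.62. Rpl10-ps3, annotated as a pseudogene of it, also had higher CPM in microglia-like cells (log2 1.89 and 2.53, with 134 and 782 UMIs there), and reads of such near copies cannot be told apart with certainty.

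The stalk and the exit tunnel of the large subunit were described next. Rplp0, the base of the stalk that recruits translation factors, had 1668 and 1728 CPM in microglia-like cells and 569 and 386 CPM in rod-like cells. Its share was 1.67-fold (1.55 to 1.80) and 1.76-fold (1.66 to 1.87) higher. Rpl12, which lies beside the stalk base, had within-group log2 ratios of 0.70 and 0.59. The stalk proteins Rplp1 and Rplp2 had -0.02 and -0.11, and 0.36 and 0.38. Rpl39, a small protein at the exit tunnel, had 2888 and 2753 CPM against 953 and 622 CPM, and log2 ratios of 0.78 and 0.80. Rpl4, whose long loop also lines the tunnel, had 633 and 644 CPM against 554 and 444 CPM, and log2 ratios of -0.62 and -0.81. These 2 tunnel proteins lay on opposite sides. Rpl35a and Rpl27a had log2 ratios of 0.67 and 0.83, and 0.55 and 0.54.

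Rpl9 had the lowest ratio in both libraries. It stood at 2056 and 1775 CPM in microglia-like cells and 2612 and 1552 CPM in rod-like cells, so its level was lower in PBS and slightly higher in MSC-sEV. Its share of member UMIs was 0.447 of the rod-like share in PBS (0.422 to 0.474) and 0.449 in MSC-sEV. Between cluster 10 and cluster 3 the log2 ratio was -1.33 and -1.21. Rpl8 had log2 ratios of -0.90 and -0.69, and Rpl10a of -0.69 and -0.46. Rpl9-ps6, a separate row, had 47 UMIs in MSC-sEV microglia-like cells against 6367 of Rpl9.

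Small subunit members also lay on both sides. Rps9 had 3084 and 3112 CPM in microglia-like cells and 999.6 and 641 CPM in rod-like cells, and its share was 1.75-fold (1.66 to 1.85) and 1.91-fold (1.83 to 2.00) higher. Rps12 had 3882 and 4111 CPM against 1373 and 1003 CPM, with log2 ratios of 0.68 and 0.69. Rps15, whose tail reaches the decoding site, had 1923 and 1849 CPM against 1689 and 1367 CPM, and log2 ratios of -0.63 and -0.91. Rpsa, also known as the laminin receptor, had -0.85 in PBS and -0.34 in MSC-sEV, so it kept its side while its size differed between libraries.

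Some members are described here for their textbook roles, not for their values, beside a median over all 77 members of 0.02 in PBS and -0.03 in MSC-sEV. Rps6, the target of S6 kinase downstream of mTORC1, had 1267 and 1261 CPM in microglia-like cells against 989 and 777 CPM in rod-like cells, and within-group log2 ratios of -0.46 and -0.65. Rpl5 and Rpl11, which together bind the p53 regulator Mdm2, had 0.02 and -0.34, and -0.15 and -0.16. Rpl22, whose loss impairs T cell development, had -0.16 and -0.32. Rps19, the gene most often mutated in Diamond-Blackfan anaemia, had 0.20 and 0.48. Rpl13a, part of an interferon-responsive translation silencing complex, had -0.24 and -0.20. Rpl3, at the catalytic centre, had -0.49 and -0.46, and Rps3, at the entry of the messenger RNA, -0.35 and -0.36. Rpl38, known for its effect on Hox messenger RNAs, had -0.11 and -0.10, and the MSC-sEV value turned to 0.073 in cells with 1000 to 5000 UMIs. Rps27a, made as a fusion with ubiquitin, had -0.36 in both libraries.

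The members on the X chromosome, Rpl10, Rpl39, Rpl36a and Rps4x, were all at least 2-fold higher in microglia-like cells in both libraries as CPM, as were 26 of 77 members in PBS and 58 of 77 in MSC-sEV, and 20.3% and 24.9% of all genes tested. Within the group their median log2 ratio was 0.59 and 0.61, with Rps4x at 0.39 in PBS and -0.03 in MSC-sEV. Shorter members leaned towards microglia-like cells. The 25 with the shortest coding sequences (75 to 396 bases) had median within-group log2 ratios of 0.16 and 0.26, and the 25 with the longest (576 to 1257 bases) -0.35 and -0.34. Across the 77 members coding length and the ratio had a Pearson r of -0.33 and -0.32 and a Spearman rho of -0.35 and -0.37, in PBS and MSC-sEV. Members share libraries and 3′ end counting, so the points are not independent.

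The promoters of the members were searched for 4 motifs on both strands, from 250 bases before to 50 after each start. CCGGAAG, the core of ETS factor sites, was found at 36.1% of the members' starts and 8.86% of all starts. GGGCGG, the GC box, was found at 58.3% and 35.7%. ATGGCGGC, from YY1 sites, was found at 6.94% and 2.24%, and TATAA, from the TATA box, at 23.6% and 24.9%. The 34 members with GGGCGG at their first listed start had median within-group log2 ratios of 0.16 and 0.17, and the 23 without it -0.14 and -0.24. For CCGGAAG the medians were -0.05 and 0.04 in 23 members with it, and 0.16 and 0.02 in 34 without it. These are descriptions of letters in a window.

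Paralogs of core members were scarce. Rpl10l had 0 UMIs in both libraries, Rpl3l 0 in PBS and 14 in MSC-sEV, and Rpl39l 7 and 19. A count of 0 allows up to 3 UMIs. Rps27l, a p53-inducible relative of Rps27, was the exception, with 710 UMIs among PBS and 4320 among MSC-sEV cells. It made up 0.08% and 0.15% of member UMIs in microglia-like cells and 0.07% and 0.10% in rod-like cells. In migratory dendritic cell-like cells it reached 0.61%, against 0.20% in monocyte or macrophage-like and 0.18% in T cell-like cells of the same library (0.13% in the 62 cells led by T cell genes and 0.22% in the 47 dividing cells). That class was 1 cluster of 50 cells in 1 library. Rps3a1, a core small subunit gene whose symbol the rule does not match, had log2 CPM ratios of 0.90 and 1.38 in microglia-like over rod-like cells; it was chosen after its values were seen.

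Rpl10 took a smaller and Rpl9 a larger part of member UMIs in rod-like, cone-like and bipolar cell-like cells than in the named leukocyte classes. Rpl10 made up 0.65% and 0.49% of member UMIs in rod-like cells, 0.58% and 0.64% in cone-like, 0.97% and 0.80% in bipolar cell-like, 1.06% and 1.02% in Müller glia-like, and 1.06% and 1.16% in endothelial cell-like cells. In leukocytes it made up 1.67% and 1.34% in microglia-like, 1.56% in monocyte or macrophage-like, 1.47% in migratory dendritic cell-like and 1.15% in T cell-like cells (1.13% in the 62 cells and 1.17% in the 47). The intervals of T cell-like (1.12 to 1.19) and MSC-sEV endothelial cell-like cells (1.01 to 1.33) overlapped. The order did not hold in every group of cells. Amacrine cell-like cells, 3 in PBS and 8 in MSC-sEV, had 1.16% (0.84 to 1.57) and 0.87% (0.55 to 1.30). At resolution 2.0, MSC-sEV cells of the microglia-like class had 0.81% in unnamed cluster 27 (55 cells) and 0.91% in unnamed cluster 3 (71 cells). Rpl9 made up 2.71% and 2.38% in rod-like, 2.79% and 2.31% in cone-like, 2.14% and 2.00% in bipolar cell-like, 2.12% and 1.92% in Müller glia-like, and 1.99% and 1.38% in endothelial cell-like cells. In the 4 leukocyte classes it lay between 1.07% and 1.21%. PBS microglia-like cells were highest there for both genes, so the opposite order did not hold among leukocytes. Parts of the microglia-like class lay outside that range of Rpl9. It was at 1.41% in PBS cluster 1. At resolution 2.0 it was at 1.43% (PBS) and 1.56% (MSC-sEV) in unnamed cluster 3, and at 0.78% in unnamed cluster 27. The values of clusters 1 and 3 exceed the 1.38% of MSC-sEV endothelial cell-like cells. In T cell-like cells Rpl9 was at 1.10%, and in the unnamed cluster with Ccr3 at 0.99%. Rod-like cluster 7, with the higher leukocyte marker share, had 0.86% Rpl10, against 0.49% and 0.55% in clusters 3 and 5 of the same library. Rps9 reached 2.57% in migratory dendritic cell-like cells, against 1.61% to 1.99% in the other named leukocyte classes. In rod-like, cone-like, bipolar cell-like, Müller glia-like and endothelial cell-like cells it made up 0.98% to 1.29%. It was higher still, at 3.81%, in unnamed cluster 27 at resolution 2.0, 55 MSC-sEV cells of the microglia-like class led by Retnlg and G0s2.

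**Figure D4:**
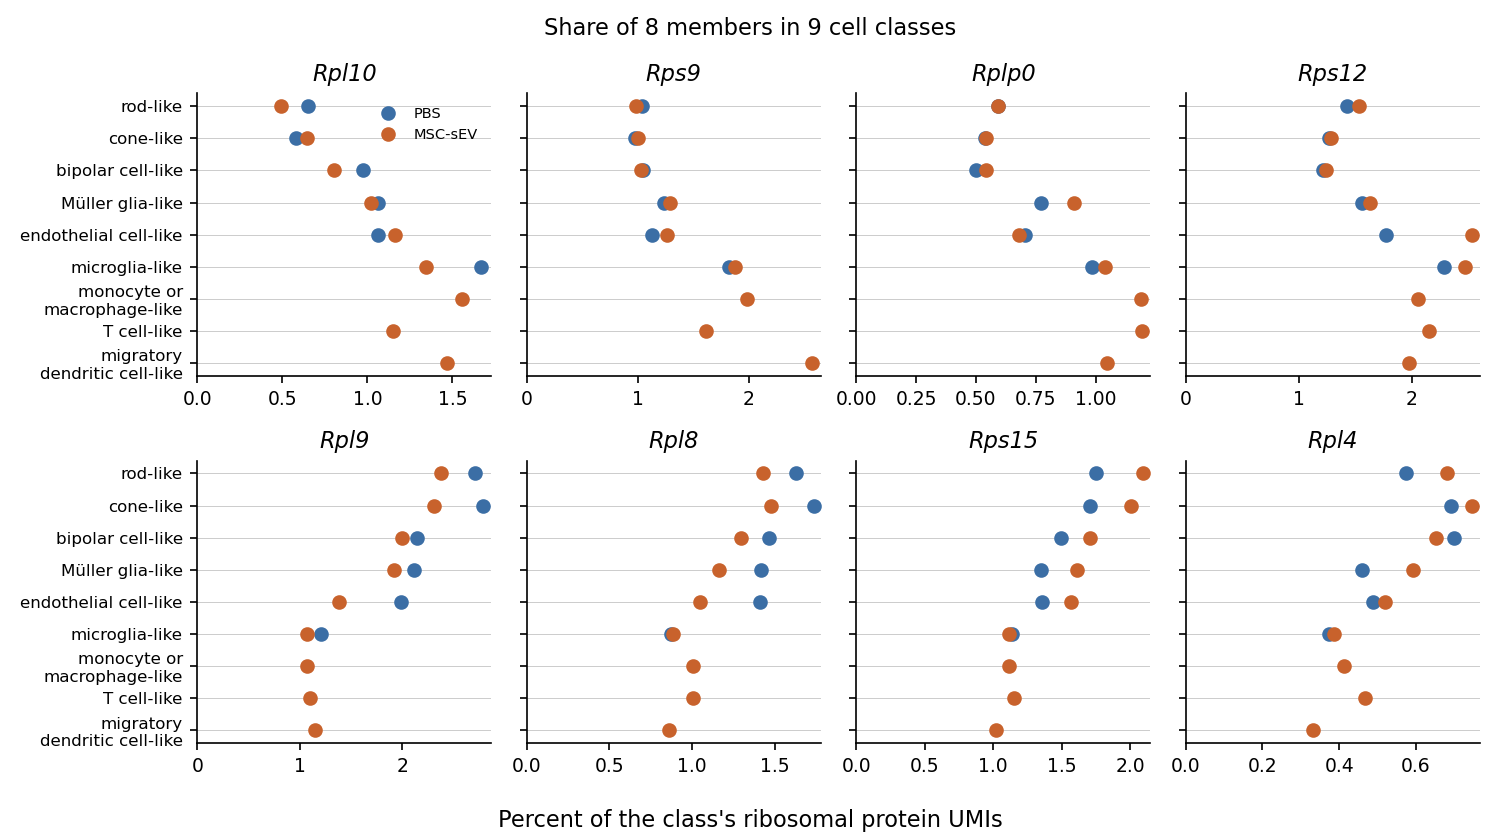
Share of the class's ribosomal protein UMIs (x axis, percent) for 8 members in 9 cell classes, in PBS (blue) and MSC-sEV (orange), with the 4 members of the upper row chosen for higher and the 4 of the lower row for lower shares in microglia-like than rod-like cells. Rpl10 spans 0.49% in rod-like to 1.67% in microglia-like cells, and Rpl9 spans 2.79% in cone-like to 1.07% in microglia-like cells.

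The comparison of the libraries asks how the members differed with MSC-sEV. In microglia-like cells the median member had a log2 ratio of MSC-sEV over PBS of -0.01, against 0.03 over all genes tested, and its sign depended on the clustering and the scaling. The class did not hold the same cells in both libraries. At resolution 2.0 its cells fell mainly into cluster 15 (39 PBS and 0 MSC-sEV cells), cluster 20 (1 and 132), cluster 18 (6 and 106), and the unnamed clusters 3 (62 and 71) and 27 (0 and 55). Cluster 27 was led by Retnlg and G0s2, and 4 neutrophil, 3 eosinophil and 11 microglia markers passed the limits for naming there. Differences between the libraries and between these kinds of cells cannot be told apart in the class as a whole. The same holds within clusters 1 and 10 of the main clustering, which are made of these cells. Of 77 members 2 were at least 1.5-fold higher, where 21.0% of all genes were, and 1 at least 1.5-fold lower, where 17.2% were. The higher 2 were Rps27l and Rps26, a protein at the exit site of the messenger RNA. Rps27l went from 142 CPM (PBS) to 252 CPM (MSC-sEV) (log2 0.83, ratio 1.44 to 2.22), and Rps26 had 1435 and 2179 CPM (0.60, 1.42 to 1.63). Both were higher within cluster 1 (1.06 and 0.36) and within cluster 10 (0.79 and 0.81). Clusters 1 and 10 make up the class in which these 2 stood out, so their values are not a separate check. Rpl31, Rpl41 and Rps18 followed with log2 ratios of 0.51, 0.48 and 0.43.

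Rps4x, the X-linked form of its protein, was the lower one, at 2597 CPM (PBS) and 1697 CPM (MSC-sEV) (log2 -0.61, ratio 0.619 to 0.690). It was lower in cluster 1 (-0.85) and in cluster 10 (-0.46). Next came Rpl21 with 3227 and 2213 CPM (-0.54), Rps27 with 2457 and 1736 CPM (-0.50), Rpl30 (-0.42) and Rpl10 (-0.34). All 5 were lower in both microglia-like clusters, but they were picked from these same cells, so this is not a separate check. Rps27 and its paralog Rps27l thus had opposite log2 ratios in microglia-like cells, -0.50 and 0.83.

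In rod-like cells all 77 members were lower in MSC-sEV, with a median log2 ratio of -0.56 against 0.27 over all genes tested. At least 1.5-fold lower were 34 members, where 12.4% of all genes were, and none was at least 1.5-fold higher, where 34.0% were. Ranked by the interval bound nearest 1, the lowest were Rpl10 with 627 and 322 CPM (-0.96), Rpsa with 1740.3 and 983 CPM (-0.82), Rpl21 (-0.77), Rpl9 (-0.75) and Rpl13 (-0.76). By the ratio alone Rpl29, at -0.77 with a wider interval, came next after Rpsa, and Rpl35 was at -0.75. Cluster 7, found in PBS alone, held 868615 of the 3309199 UMIs of PBS rod-like cells. It also held 886 of their 2075 UMIs of Rpl10, at 1020 CPM. The rod-like class thus did not hold the same clusters in both libraries. Without cluster 7 the median log2 ratio of the members was -0.40. Within clusters the shift was smaller. Of 77 members 68 were lower in cluster 0 (median -0.18) and 64 in cluster 6 (-0.23), where 43.9% and 48.7% of all genes tested were lower. In cluster 3 (-0.03) 47 members and in cluster 5 (-0.004) 41 members were lower, where 46.0% and 45.3% of all genes were. Rpl10, Rpsa, Rpl21, Rpl9 and Rpl13 were lower in each of clusters 0, 3 and 5, with log2 ratios from -0.50 to -0.11. They were picked from the class that holds these clusters, so this is not a separate check.

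In Müller glia-like cells the median was -0.23 against 0.13 over all genes tested, and no member was 1.5-fold higher or lower, where 25.3% and 12.1% of all genes were. Rpl23a was highest, at 899.9 and 1218 CPM (log2 0.44), followed by Rps27l (0.38) and Rpl31 (0.36). Among the lowest were Rpl8 (-0.49), Rpl21 (-0.46), Rpl37 (-0.45) and Rpl35a (-0.45). These lower values depended on how the cells were named: with the class of each cell taken from its marker UMIs (73 PBS and 81 MSC-sEV cells) the median was 0.62 and these 4 had log2 ratios above 0. Some members shifted their share of member UMIs in several classes, which share the same 2 libraries. Rpl23a made up 0.89% in PBS and 1.39% in MSC-sEV in Müller glia-like cells, 1.03% and 1.34% in rod-like, 1.03% and 1.35% in cone-like, 1.04% and 1.33% in bipolar cell-like and 0.96% and 1.38% in endothelial cell-like cells. In microglia-like cells it made up 1.15% and 1.14%. Rps26 went the other way round, with 0.85% and 1.31% in microglia-like cells but 0.88% and 0.97% in rod-like and 0.91% and 0.92% in Müller glia-like cells.

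**Figure D5:**
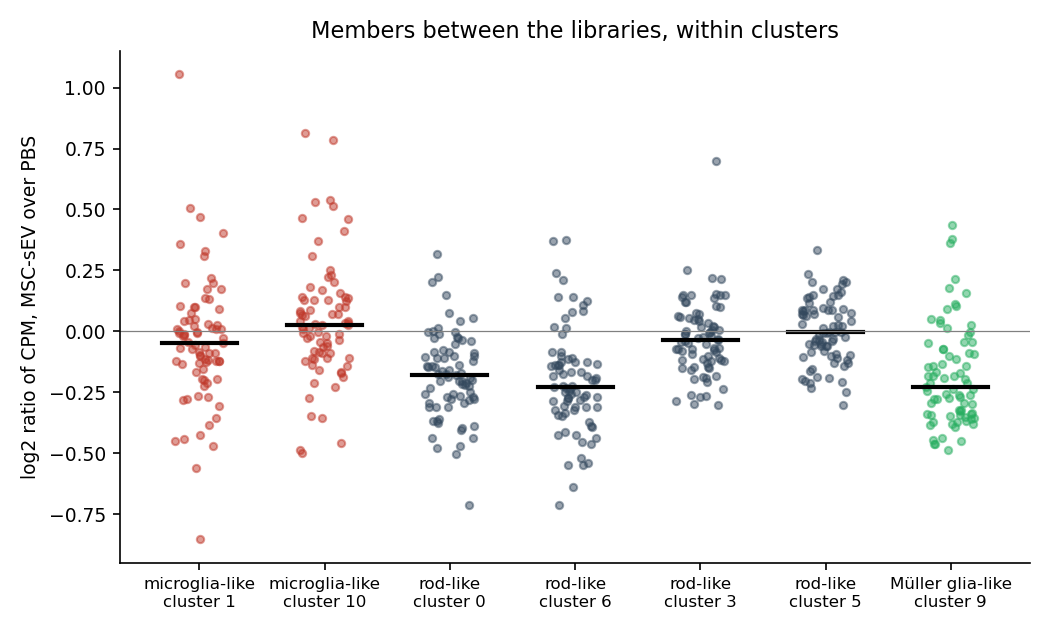
Log2 ratio of CPM, MSC-sEV over PBS (y axis), of 77 members within 7 clusters, 2 of them microglia-like, 4 rod-like and 1 of Müller glia (x axis); each point is a member and each black line the median. The medians of rod-like clusters 3 and 5 lie at -0.03 and -0.004, those of clusters 0 and 6 at -0.18 and -0.23, and that of the Müller glia-like cluster at -0.23.

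Other genes of translation followed the members in part. Among 22 translation factors whose messenger RNAs also start with a pyrimidine run, the median log2 ratio of microglia-like over rod-like cells was 0.31 in PBS and 0.75 in MSC-sEV, and 15 and 20 were higher, where 40.7% and 39.7% of all genes tested were. Eef1a1, the factor that delivers aminoacyl-tRNA, had 5154 and 4069 CPM in microglia-like and 2284 and 1313 CPM in rod-like cells. Fau, made as a fusion with the small subunit protein eS30, had log2 ratios of 1.42 and 1.83, and Eef1b2, an exchange factor for the elongation factor, 1.74 and 2.51. Nap1l1, a histone chaperone, went the other way with -1.63 and -2.03. Among 11 ribosomal protein paralogs, fusions and pseudogenes outside the symbol rule, which include Fau, all 11 were higher in both libraries, against the same shares of all genes, with medians of 1.09 and 1.15.

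The remaining lists had medians below 0, as all genes tested did (-0.27 in PBS and -0.39 in MSC-sEV). The 22 initiation factors had medians of -0.24 and -0.12, with Eif4g2 at -1.05 and -1.29 and Eif3a at 1.27 and 1.04. The 34 ribosome biogenesis genes had -0.04 and -0.10, with Npm1, a nucleolar chaperone, at 1.05 and 1.46 and Ncl at -0.43 and -0.39. The mTORC1 regulators had -0.39 and -0.61 over 15 and 16 genes. Eif4ebp1, a translation repressor under mTORC1, had 30 and 188 UMIs in microglia-like cells against 17 and 10 in rod-like cells. Nap1l1 and Eif4ebp1 were chosen after their values were seen. Mitochondrial ribosomal proteins, which serve the separate ribosome of that organelle, had medians of -0.67 and -0.35 over 77 genes, with 67 (87.0%) and 54 (70.1%) lower, where 59.3% and 60.3% of all genes tested were. Mrpl52 was an exception at 1.02 and 1.21. The mitochondrial median was thus below that of all genes in PBS and close to it in MSC-sEV.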

How the data were processed

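Per the labels' protocols, the authors mapped reads to mm10 and counted UMIs with Cell Ranger 3.0.2, and the files hold those counts. Their annotation release is not given in the sources used here. Coordinates and coding lengths came from GENCODE for GRCm38. Scrublet, at an expected 2%, called 3 PBS and 4 MSC-sEV doublets, too few to show that it worked, so removing the top 2% of scores was an alternative. The 3663 remaining cells were clustered with scanpy 1.11.5 (2000 variable genes without ribosomal protein genes, 30 principal components, 20 neighbours, Leiden resolution 1.0). Clusters could be named when at least 3 markers each reached 20% of cells and 2-fold over the other cells. Of several such classes, the one with most markers among the cluster's 10 leading genes was taken. The cluster stayed unnamed when those genes held more markers of another class, or equally many. A much shallower cluster without an own marker among them also stayed unnamed. UMIs were summed per class and library and given as CPM. Ratios have exact conditional binomial intervals, pooled shares Clopper-Pearson intervals and per-cell medians exact intervals from the ranked cells. Sums of 0 were set to 3. Ratio intervals were tried on counts simulated with counting error alone. That trial says nothing about the spread between cells, mice or libraries. Members and lists were chosen with earlier results of these data known. Named members were the 8 highest and 8 lowest between classes and 5 each way between libraries, with at least 50 UMIs, plus members with textbook roles and paralogs; a few of these are not reported here.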

Additional observations from a re-analysis of the deposited data

Results flagged for a closer look

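Rps19, Rpl41, Rps26, Rps2 and Rps18 had opposite directions between the libraries in microglia-like and rod-like cells, each with an interval that excluded 1. The difference between the classes was not tested. Of 77 members, 20 had an interval above 1 in microglia-like cells, where 1487 of 10029 genes tested did. In rod-like cells 76 of 77 had an interval below 1, where 2065 of 10355 genes did, so nearly any member higher in microglia-like cells shows opposite directions. The log2 ratio of MSC-sEV over PBS was 0.41 in microglia-like and -0.40 in rod-like cells for Rps19, 0.48 and -0.55 for Rpl41, 0.60 and -0.42 for Rps26, 0.33 and -0.67 for Rps2, and 0.43 and -0.44 for Rps18. In microglia-like clusters 1 and 10 all 5 were higher in MSC-sEV, with values of 0.31 and 0.47 for Rps19 and 0.20 and 0.41 for Rps2. The 5 were picked from the class that these clusters make up, so this is not a separate check. Differences between the libraries and between kinds of cells cannot be told apart within these clusters. In rod-like clusters 3 and 5, where the group as a whole differed little, Rps19 had 0.03 and 0.14 and Rps26 0.15 and 0.14, so neither was lower there. Rpl41 had -0.006 in each, and Rps18 had -0.05 and 0.08. Rps2 was lower in both, at -0.15 and -0.20.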

How the results depend on the processing

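No paired analysis was possible because each group had 1 library. Alternative values for named members numbered 884 between classes. Between libraries they numbered 140, 75 and 96 in cells called microglia-like, rod-like and, last, Müller glia-like. In that order, 2, 0, 0 and 4 of them reversed a ratio whose interval excluded 1. Some settings could not change a value, so these counts do not measure how stable the values were. A share of member UMIs between classes stays the same under other denominators, median-of-ratios scaling or filters on a member's UMIs. Those filters also leave the ratios between libraries unchanged. With classes from marker UMIs the Müller glia-like median library log2 ratio turned from -0.23 to 0.62, and Rpl8, Rpl21, Rpl37 and Rpl35a turned to 0.31, 0.10, 0.28 and 0.64. The Müller median was -0.30 without mitochondrial and marker genes, -0.36 with 1000 to 5000 UMIs, -0.37 with median-of-ratios scaling and -0.16 by the mean over cells. Rpl38 between classes in MSC-sEV turned to 0.073 with 1000 to 5000 UMIs and 0.05 by the mean over cells. Among the median shares per cell, PBS microglia-like cells had 20.1% with 1000 to 5000 UMIs and 13.9% at resolutions 0.5 and 2.0, where 40 and 46 cells held the name. MSC-sEV microglia-like cells had 17.9% at that depth and at resolution 2.0, 16.8% by marker UMIs and 17.3% with mitochondrial and marker genes out of the denominator. PBS rod-like cells had 9.11% without mitochondrial genes, 10.4% also without marker genes and 9.20% with the stricter filter. MSC-sEV rod-like cells had 5.50% by marker UMIs, 5.07% without both gene groups and 4.98% at resolution 2.0. Members at least 2-fold higher in microglia-like than rod-like cells numbered, in PBS, 53 with 1000 to 5000 UMIs and 49 by the mean over cells; at 1.5-fold they numbered 55, and at 3-fold 3 in PBS and 23 in MSC-sEV. The median library log2 ratio in rod-like cells was -0.53 with 1000 to 5000 UMIs, -0.29 by marker UMIs, -0.63 without mitochondrial and marker genes, -0.46 by the mean over cells, -0.82 with median-of-ratios scaling, and -0.42 and -0.39 at resolutions 0.5 and 2.0. In microglia-like cells it was 0.12 by marker UMIs, -0.11 by the mean over cells, 0.060 with median-of-ratios scaling, and 0.17 at both resolutions, so its sign was not stable. By cluster, as added after seeing the data, microglia-like medians were 21.3% and 19.3% in cluster 1 and 13.9% and 13.8% in cluster 10, with a library log2 ratio of 0.027 in the latter; 48 members were at least 2-fold higher in PBS with cluster 1 alone. Rod-like medians were 3.32% and 2.70% in cluster 0 and 9.82% and 9.76% in clusters 3 and 5. The rod-like library log2 ratio was -0.18 in cluster 0, -0.00064 in clusters 3 and 5, and -0.40 without cluster 7. With cluster 0 alone 77 members were at least 2-fold higher in PBS, and with clusters 3 and 5 22 in MSC-sEV. The share of all genes tested was not computed for any of these alternative counts of members. The cause of each shift was not tested. Intervals of pooled shares, which cover counting error only, were narrower than those of per-cell medians. Neither kind covers the spread between mice or libraries, because each group had 1 library.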
